A study of Mus musculus with 8 samples.

Results

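Regions bound by Nanog and by Sox2, and by neither Oct4 nor Nr5a2, numbered 14388 of 306466 bound regions. The cells were mouse embryonic fibroblasts (MEFs) on day 3 of a protocol for reprogramming to pluripotency. Binding was mapped by CUT&Tag, which tethers the transposase Tn5 to an antibody so that DNA near the target is cut and tagged. The antibody recognised the Flag epitope on the delivered factor. There were 8 libraries, 1 per group. Nanog, Sox2, Oct4 and Nr5a2 were each mapped in native form and as a BiD fusion. BiD is a stretch of the BAF subunit SS18 that contacts the remodeller's ATPase, BRG1, and was fused to the N-terminal end of each factor. Per the study's methods, all cells were MEFs with an Oct4-GFP reporter, infected with retroviral vectors and kept in a chemically defined medium. The library titles name 1 factor each and do not say what else was delivered to the same cells. Nanog and Sox2 were mapped in separate libraries, and whether both sat on the same DNA molecule was not measured.

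The members were chosen by the peaks themselves. Overlapping peaks of all 8 libraries (1 bp or more) were joined into regions, and a member held a peak of at least 1 Nanog library and at least 1 Sox2 library, with no peak of the 4 Oct4 and Nr5a2 libraries. The presence of these peaks is therefore the definition and not a finding. They are called Nanog-Sox2 regions below. They made up 4.69% of all regions, 15.3% of the 93939 regions with a Nanog peak and 11.4% of the 125958 regions with a Sox2 peak. The lists held from 54794 peaks for Oct4 to 120594 for Sox2BiD. Other things equal, more reads yield more peaks at the same threshold. Peak numbers did not simply follow the read totals in the study's reporting summary, which were not used here. Native Sox2 and native Oct4 had more read pairs than their fusions and fewer peaks. Nr5a2BiD had more read pairs than native Nr5a2 and fewer peaks, and NanogBiD had more of both than native Nanog. The cause of the differences in peak number was not tested. With 1 library per group there was no replicate error, so no test between groups was run. All intervals are 95% intervals for counting error over regions, and they leave out the spread between cultures. Shares carry exact Clopper-Pearson intervals, and differences of shares carry Newcombe intervals.

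Nanog is a homeodomain protein and Sox2 is an HMG-box protein, and both belong to the core network of pluripotent cells together with Oct4. Sox2 bends DNA at sites of the type CCATTGTT and often binds beside Oct4. AP-1, the dimers of Jun and Fos proteins, is active at many fibroblast enhancers. TEAD proteins carry the Hippo coactivators Yap1 and Wwtr1, and RUNX proteins pair with Cbfb.

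The DNA under representative Nanog-Sox2 regions is shown first, since the comparisons below turn on its motifs. Each sequence is the plus strand of mm10 (GRCm38), within 50 bp of the strongest summit, with motif matches in capitals. A peak was ranked by its score within its own library. The strength of a region is the lowest such rank over the libraries with a peak. The first 4 regions run from the highest down, but the whole list does not. The motifs, searched on both strands, were TGACTCA or TGAGTCA for AP-1, CCATTGTT for SOX, GCCATTA for NANOG, CATTCCA or CATTCCT for TEAD, and AACCACA for RUNX. The gene names are labels only. The start of the named gene lay 153 kb away for Slc4a3, 158 kb for Inhba and 290 kb for Hlx. The first 4 regions rank among the 10 strongest with peaks in all 4 Nanog and Sox2 libraries, and hold AP-1 (Scd3, Ice1), TEAD (Slc4a3) and RUNX (Tmprss11c) matches. The rest of those 10 held no match to these motifs and are not shown.
Scd3 region (chr19:44225906-44226006): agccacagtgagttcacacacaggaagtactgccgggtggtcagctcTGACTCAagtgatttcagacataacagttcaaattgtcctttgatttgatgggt
Ice1 region (chr13:70439531-70439631): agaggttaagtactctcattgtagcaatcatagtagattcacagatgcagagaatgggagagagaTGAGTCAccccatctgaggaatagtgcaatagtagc
Slc4a3 region (chr1:75704922-75705022): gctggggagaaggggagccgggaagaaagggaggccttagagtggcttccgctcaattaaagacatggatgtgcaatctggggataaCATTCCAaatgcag
Tmprss11c region (chr5:86245054-86245154): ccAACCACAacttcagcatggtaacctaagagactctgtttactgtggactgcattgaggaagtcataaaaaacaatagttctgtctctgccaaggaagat
The next 2 are the strongest all-library regions with a SOX match (Inhba, which also holds a TEAD match) and with a NANOG match (Tmem26). They were chosen after the values were seen, as were the TEAD and RUNX examples above.
Inhba region (chr13:15853303-15853403): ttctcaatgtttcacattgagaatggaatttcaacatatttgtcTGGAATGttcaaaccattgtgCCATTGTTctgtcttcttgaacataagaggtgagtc
Tmem26 region (chr10:68672552-68672652): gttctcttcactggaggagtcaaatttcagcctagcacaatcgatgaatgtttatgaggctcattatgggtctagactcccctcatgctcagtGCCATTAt
The last 3 hold combinations. The Dnah2 region is the highest ranked of 3 regions with both a SOX and a NANOG match, and also has a TEAD match. The Hlx and Runx1t1 regions are the strongest regions of the fusions alone with a SOX and with a NANOG match, each beside an AP-1 match, and were also chosen after the values were seen.
Dnah2 region (chr11:69443483-69443583): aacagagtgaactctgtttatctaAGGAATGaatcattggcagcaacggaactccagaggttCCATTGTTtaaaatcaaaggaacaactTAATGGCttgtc
Hlx region (chr1:184441461-184441561): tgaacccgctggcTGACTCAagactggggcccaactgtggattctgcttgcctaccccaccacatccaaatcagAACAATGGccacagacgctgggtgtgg
Runx1t1 region (chr4:13790306-13790406): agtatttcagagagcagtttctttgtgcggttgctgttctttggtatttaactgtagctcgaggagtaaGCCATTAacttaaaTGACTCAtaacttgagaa

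Nanog and Sox2 shared more private regions than any other pair of factors. Of 43011 regions with a Nanog and a Sox2 peak, 21948 also had an Oct4 peak, 20789 also had an Nr5a2 peak and 14114 had both. The remaining 14388 were 33.5% of the shared regions. The other 5 pairs had from 5938 (Oct4 and Nr5a2) to 8490 (Sox2 and Nr5a2) private regions, which were 22.4% to 27.1% of their shared regions. When each library was cut to its 50000 highest scoring peaks, Nanog and Sox2 still had 8775 private regions, against 3208 to 6408 for the other pairs. A Nanog peak overlapped a Sox2 peak directly in all 14388 regions. This follows from the rule, since members hold no other peaks, and is not a finding. Their median length was 1154 bp, from 389 to 5861 bp.

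The rule rests on thresholds, which the values near it make plain. The score of a peak is 10 times the negative log10 of its p-value, and the lowest deposited score was 50. The weaker of the best Nanog and best Sox2 scores was under 60 in 2210 members and at least 100 for both factors in 7311 (50.8%). On the other side, 5941 shared regions were kept out by a single Oct4 or Nr5a2 library, most often Oct4BiD (2789 regions). In 1124 of these the excluding peak scored under 60. An Oct4 or Nr5a2 peak lay within 1000 bp of 3210 members (22.3%) and within 10000 bp of 12145 (84.4%). In regions of both Nanog libraries and no other the same shares were 21.8% and 84.7%, and in regions of both Sox2 libraries and no other 17.95% and 75.6%.

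The native and fused forms contributed unequally. Sox2BiD had a peak in 13686 regions (95.1%), native Nanog in 11714 (81.4%), NanogBiD in 10760 (74.8%) and native Sox2 in 8131 (56.5%). Of the regions with a native Sox2 peak, 91.4% also had a Sox2BiD peak, whereas 54.3% of those with a Sox2BiD peak had a native one. For Nanog the same shares were 69.0% and 75.1%. These shares moved with the number of peaks. With 50000 peaks per library, Sox2BiD was present in 77.4% and native Sox2 in 80.5%, while native Nanog (84.3%) and NanogBiD (73.2%) changed less.

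All 9 possible combinations of libraries occurred. Peaks of all 4 libraries were found in 4436 regions (30.8%, 95% interval 30.1 to 31.6). Both fusions with native Nanog followed with 3312 (23.0%), then native Nanog with both Sox2 forms with 2058 (14.3%). The fusions alone had 1652 regions (11.5%, 10.97 to 12.01), native Nanog with Sox2BiD had 1293 (8.99%), and both fusions with native Sox2 had 935 (6.50%). Combinations without Sox2BiD were rare, with 338 regions of both Nanog forms and native Sox2, 277 of the native factors alone (1.93%, 1.71 to 2.16) and 87 of NanogBiD and native Sox2. The order of the fusions alone and the native factors alone was not stable. With 50000 peaks per library, 495 regions held the fusions alone and 689 the native factors alone.

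**Figure D1:**
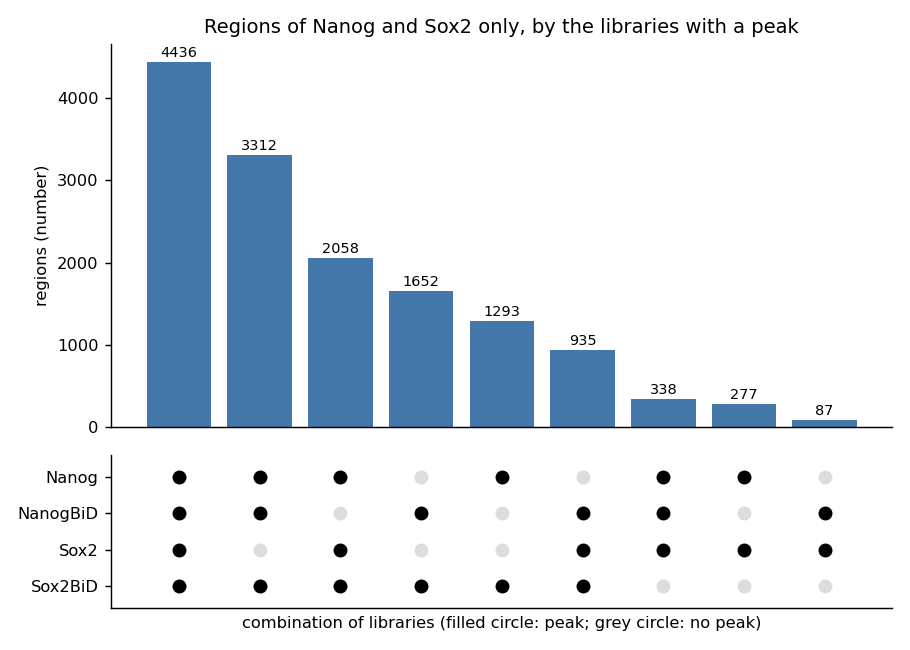
Number of Nanog-Sox2 regions (bars, y axis) for each combination of libraries with a peak (filled circles below). The 4436 regions of all 4 libraries form the tallest bar, and the 3 combinations without Sox2BiD hold 338, 277 and 87 regions.

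Members were of ordinary height for both Nanog libraries and somewhat higher for the Sox2 libraries, mainly Sox2BiD. Heights are whole tags at the summit and are not scaled to depth, so they are compared within a library. For native Nanog the median height was 16 tags in members (range 7 to 86) and 16 in all its peaks. For NanogBiD it was 20 (8 to 98) against 20, for native Sox2 23 (10 to 95) against 22, and for Sox2BiD 24 (8 to 108) against 21. The number of libraries went with height. Where all 4 libraries had a peak, medians were 21, 22, 25 and 33 tags for Nanog, NanogBiD, Sox2 and Sox2BiD, and where 2 did they were 12, 15, 17 and 18. This is a description, since a stronger site passes the threshold in more libraries.

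Ordered by their lowest rank, the leading members with peaks in all 4 libraries had the following heights. The region at Scd3, a stearoyl-CoA desaturase gene, lay 11.9 kb from a start site on an exon of the annotation (chr19:44225030-44226679). It had 61 tags for Nanog, 72 for NanogBiD, 54 for Sox2 and 77 for Sox2BiD. The intergenic region nearest to Ice1 (chr13:70438650-70441427), at 134 kb from its start, had 56, 72, 55 and 51 tags in the same order. The summits of its 4 libraries lay within 87 bp of each other. An intron of Baalc held a region with 38, 54, 67 and 81 tags, with all 4 summits within 40 bp, and an intron of Tmprss11c held one with 66, 72, 64 and 62. Summits were not this close in all of the 10. They spread over 246 bp at Scd3, 1009 bp in the region nearest to Cd83 and 1098 bp in that nearest to Acss3. The region labelled Inhba, the gene of the activin A subunit, lay in an intron of B230303A05Rik, 158 kb from the Inhba start. There the counts were 33, 40, 54 and 70 tags. At the region near Tmem26 with the NANOG match they were 33, 52, 43 and 36. The Dnah2 intron region with both a SOX and a NANOG match had 32, 36, 23 and 51 tags.

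By the same order, the first region of the native factors alone lay in an intron of Serpinb2 (chr1:107528015-107529187), with 21 tags for Nanog and 31 for Sox2. The first of the fusions alone lay in an intron of Parp8 (chr13:116990286-116991586), with 43 tags for NanogBiD and 32 for Sox2BiD. The next lay in St7, with 25 and 60 tags, and in Cry1, a clock gene, with 21 and 39. The fusion region in Runx1t1 with a NANOG match had 56 tags for NanogBiD and 34 for Sox2BiD. The intergenic region labelled Hlx, 290 kb from its start and with a SOX match, had 24 and 39. Heights of different libraries are not on a common scale.

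Nanog and Sox2 summits lay close together, though less close than those of the 2 forms of 1 factor. The nearest Nanog and Sox2 summits were within 100 bp in 8799 regions (61.2%, 60.4 to 62.0). Median distances were 86 bp between native Nanog and native Sox2 (7109 regions), 96 bp between native Nanog and Sox2BiD, 106 bp between NanogBiD and native Sox2 and 114 bp between the fusions (10335 regions). In comparison, Nanog and NanogBiD summits were a median of 45 bp apart and Sox2 and Sox2BiD summits 41 bp. In the 4436 regions with all 4 libraries, the between-factor medians were 87, 95, 98 and 104 bp, and the within-factor medians were 45 and 42 bp. In the 4572 regions with peaks in all 8 libraries, the between-factor medians were 78 to 89 bp, so distances of this order were also seen outside the Nanog-Sox2 regions.

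Of the motifs searched, AP-1 had the most matches at Nanog-Sox2 summits. The AP-1 site has 7 letters and the SOX site 8. Their shares in windows 500 bp to either side were 1.85% and 0.466%. Shares of different motifs are therefore not on a common scale. For each region the summit of its best ranked peak was taken, and 14387 regions on placed chromosomes were searched. An AP-1 match lay within 50 bp in 1806 regions (12.6%, 12.02 to 13.11), against 6.39% of all regions. This was 6.78 times (6.17 to 7.45) the share in windows 500 bp to either side. TEAD matched 10.6% (all regions, 7.12%; 2.85 times the flanks) and RUNX 7.94% (all regions, 4.28%; 3.47 times). SOX matched 287 regions (1.99%, 1.77 to 2.24; all regions, 1.25%), at 4.28 times the flanks. NANOG matched 249 regions (1.73%, 1.524 to 1.957; all regions, 1.25%), at 1.87 times the flanks. The octamer ATGCAAAT, the site of Oct4, matched 61 regions (0.424%), against 2.92% of all regions and 0.594% of the flanks. Since regions with Oct4 peaks were left out by the rule, the low octamer share is a description. SOX matches were found in 1.44% of the regions with an AP-1 match and in 2.07% of the rest. At least 1 of the first 5 motifs was found in 4482 regions (31.2%), and the remaining regions held none of these letters in the window.

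Words of 6 letters, counted without any motif in mind, ranked in a similar order. Of 1612 words found in at least 1% of summit windows, GACTCA and GAGTCA, the overlapping letters of the AP-1 site, came first at 3.24 and 3.08 times the flanks. ACAATG, part of the SOX site on the other strand, came next at 2.63 times, in 16.2% of regions. CATTCC of the TEAD site followed at 2.41 times, and ACCACA of the RUNX site stood in the first 7 at 2.36 times.

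**Figure D2:**
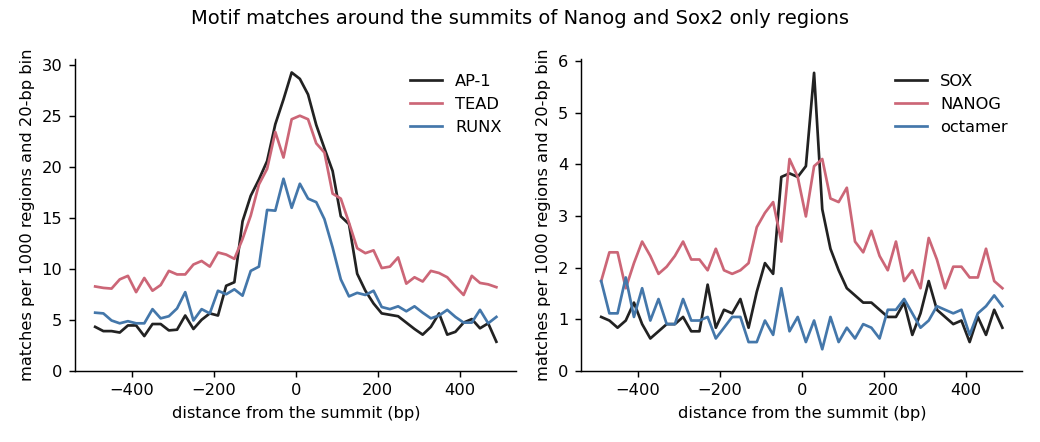
Matches per 1000 Nanog-Sox2 regions in 20-bp bins (y axis) against distance from the summit (x axis, bp), for AP-1, TEAD and RUNX at left and for SOX, NANOG and the octamer at right. AP-1 reached 29.3 matches per 1000 regions beside the summit and 4.31 at the far left edge, and the octamer had no peak.

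The motif content differed from that of regions of either factor alone. Among 11593 regions with both Nanog libraries and no other, 8.997% had an AP-1 match, and among 20293 with both Sox2 libraries and no other, 7.93%. The Nanog-Sox2 regions exceeded them by 3.56 (2.80 to 4.31) and 4.62 (3.97 to 5.28) percentage points. They also exceeded the regions of Nanog and Oct4 only (5.95%) and of Sox2 and Oct4 only (6.09%), by 6.60 (5.84 to 7.35) and 6.46 (5.70 to 7.22) points. Regions of Nanog and Nr5a2 only (9.78%) and of Sox2 and Nr5a2 only (9.50%) came closer, at 2.78 (1.91 to 3.62) and 3.06 (2.22 to 3.88) points below. For the other motifs they stood between the single factors. SOX matched 1.99% here, 0.302% of the Nanog regions and 2.98% of the Sox2 regions. NANOG matched 1.73%, 3.04% and 1.197%, RUNX 7.94%, 10.9% and 4.40%, and TEAD 10.6%, 12.9% and 7.92%, in the same order. Each of these differences from the single factors had an interval that left out 0.

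**Figure D3:**
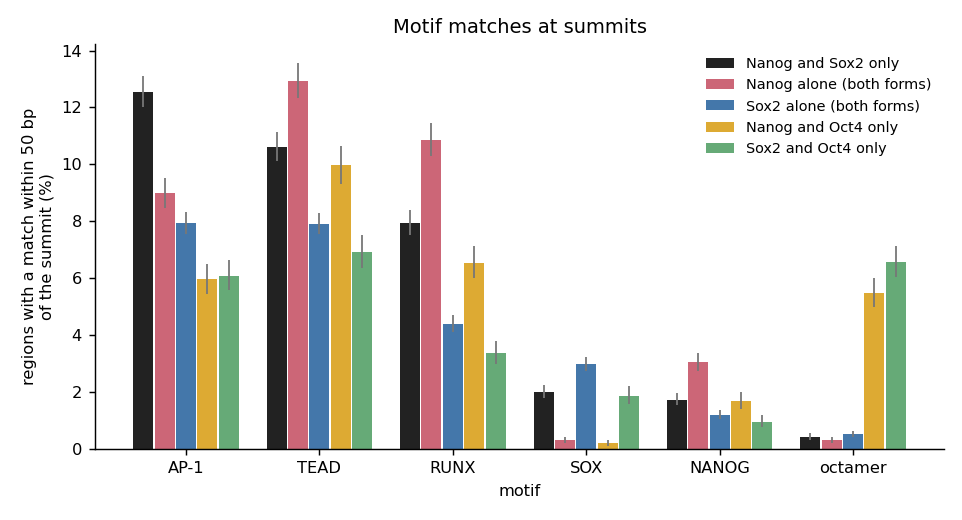
Share of regions with a motif match within 50 bp of the summit (bars, %; error bars, 95% exact intervals) in Nanog-Sox2 regions and in 4 comparison sets. AP-1 was highest in the Nanog-Sox2 regions at 12.6%, SOX in the Sox2 regions at 2.98%, and NANOG in the Nanog regions at 3.04%.

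AP-1 was also more frequent in members when each library was read at its own summits. Here members were compared with all other peaks of the library, not with single-factor regions. Those other peaks lay more often at promoters (24.0% against 9.85% for native Nanog). At native Nanog summits, AP-1 matched 13.7% of members and 9.54% of the library's other peaks, a difference of 4.18 points (3.53 to 4.85). The differences were 4.05 (3.41 to 4.71) for NanogBiD, 3.56 (2.84 to 4.31) for native Sox2 and 4.55 (3.98 to 5.15) for Sox2BiD. TEAD and RUNX were also more frequent in members in each library, unlike in the comparison with regions of Nanog alone. At native Nanog summits these differences were 1.55 points (0.909 to 2.20) for TEAD and 1.99 (1.44 to 2.56) for RUNX. SOX matches were more frequent at Nanog summits inside members than outside, with 0.919% against 0.289% for native Nanog and 0.745% against 0.344% for NanogBiD. NANOG matches were likewise more frequent at Sox2 summits inside members, with 1.43% against 1.08% for native Sox2 (0.357 points, 0.104 to 0.650) and 1.34% against 1.02% for Sox2BiD. The motif of the library's own factor was not raised. NANOG at native Nanog summits was 1.77% in members and 1.68% elsewhere (0.0888 points, -0.157 to 0.361), and at NanogBiD summits 2.38% and 2.58%. SOX at native Sox2 summits was 1.80% and 1.91%, and at Sox2BiD summits 2.81% against 3.35% (-0.544 points, -0.827 to -0.237).

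Within members, SOX matches lay nearer to Sox2 summits by median distance, and RUNX, NANOG and TEAD matches somewhat nearer to Nanog summits. This was read in regions with all 4 libraries and a single match within 150 bp of the mean of the 4 summits, a choice made after the values were seen. In 145 regions with a SOX match, the median distance to it was 102.5 bp for Nanog, 117.5 bp for NanogBiD, 56.5 bp for Sox2 and 48.5 bp for Sox2BiD. The Nanog summits were on average the nearer ones in 40 of them (27.6%, 20.5 to 35.6). In 196 regions with a NANOG match the medians were 68, 74, 88.5 and 97.5 bp, and the Nanog summits were nearer in 115 (58.7%, 51.4 to 65.6). At short range this order was not seen for NANOG, since the share of summits within 25 bp was 15.3% for Nanog, 16.3% for NanogBiD, 19.4% for Sox2 and 14.8% for Sox2BiD, with overlapping intervals. In 780 regions with a RUNX match they were 64, 69, 83.5 and 83 bp, with Nanog nearer in 59.2% (55.7 to 62.7). In 1031 regions with a TEAD match they were 69, 76, 81 and 85 bp, with Nanog nearer in 54.3% (51.2 to 57.4). AP-1 matches lay 68, 70, 71 and 67 bp from the summits in 1130 regions, with Nanog nearer in 49.9% (47.0 to 52.9).

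**Figure D4:**
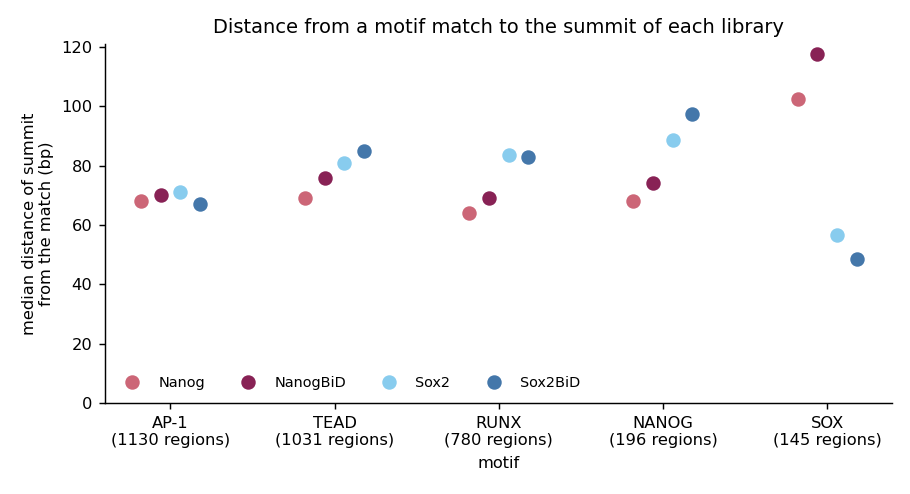
Median distance (y axis, bp) from a motif match (x axis) to the summit of each of the 4 libraries, in Nanog-Sox2 regions with peaks in all 4 and a single match. Sox2 and Sox2BiD summits lay 56.5 and 48.5 bp from SOX matches and Nanog and NanogBiD summits 102.5 and 117.5 bp, whereas the 4 libraries lay 67 to 71 bp from AP-1 matches.

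Summit heights with and without a motif were read in 2 ways. The first took the motif at the summit of the best ranked library, so the library that set the summit enters the comparison. Sox2BiD peaks then had a median of 31 tags in the 286 members with a SOX match (quartiles 23 and 48) and 24 in those without (16 and 36), and native Sox2 peaks 25 and 23. At NANOG matches the medians were 20 against 16 tags for native Nanog and 23 against 20 for NanogBiD. RUNX gave a like difference for both Nanog forms, at 19 against 16 and 22 against 19 tags. At SOX matches the Nanog medians were 14 against 16 tags for native Nanog and 17 against 20 for NanogBiD.

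The second way, added after the values were seen, took the motif at each library's own summit. Sox2BiD peaks had a median of 29 tags with a SOX match (384 members) and 24 without, and native Sox2 peaks 24 and 23. At NANOG matches native Nanog had 19 against 16 and NanogBiD 23 against 20. The lower Nanog heights at SOX matches did not hold, with 17 against 16 tags for native Nanog and 23 against 20 for NanogBiD. The interquartile ranges overlapped in each of these comparisons. With or without an AP-1 match at the library's own summit the medians differed by at most 1 tag in each of the 4 libraries.

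The combination of forms went with the motif content. AP-1 matched 17.1% of the regions of native Nanog and Sox2BiD (15.1 to 19.3), 14.6% of those of both fusions with native Nanog, 13.3% of those of all 4 libraries and 12.9% of those of native Nanog with both Sox2 forms. These 4 combinations share a native Nanog and a Sox2BiD peak. In the combinations that lacked either, it matched 3.45% to 8.66%, and 6.90% (5.73 to 8.23) in the fusions alone. Grouped so, after the values were seen, 14.04% of 11098 regions with a native Nanog and a Sox2BiD peak had an AP-1 match and 7.54% of the 3289 others did, a difference of 6.50 points (5.35 to 7.58). With 50000 peaks per library the difference was 3.48 points (2.06 to 4.86), and with scores of at least 100 it was 4.93 (3.50 to 6.28).

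SOX matches went with Sox2BiD and NANOG matches with NanogBiD. Of 13685 regions with a Sox2BiD peak 2.09% had a SOX match, and of 702 without it 1 region did (0.142%), a difference of 1.95 points (1.25 to 2.23). None of the 277 regions of the native factors alone had one, which allows a share of up to 1.08% at 3 counts, or 1.32% by the exact interval. In the fusions alone the SOX share was 3.03% (2.25 to 3.97), at 11.1 times the flanks, and ACAATG was their leading word. It lay 0.242 points (-1.03 to 1.46) from that of native Nanog and Sox2BiD. NANOG matched 2.03% of 10759 regions with a NanogBiD peak and 0.854% of 3628 without (1.17 points, 0.737 to 1.55). With scores of at least 100 that difference was 0.687 points (0.0778 to 1.19). Read at Sox2 summits, SOX matched 3.69% of the fusions alone and 2.39% of the regions of all 4 libraries, and at Nanog summits NANOG matched 2.85% and 2.07%. Between the fusions alone and all 4 libraries, the differences were -6.40 points (-7.93 to -4.76) for AP-1, 1.156 points (0.308 to 2.16) for SOX and 0.293 points (-0.443 to 1.18) for NANOG.

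**Figure D5:**
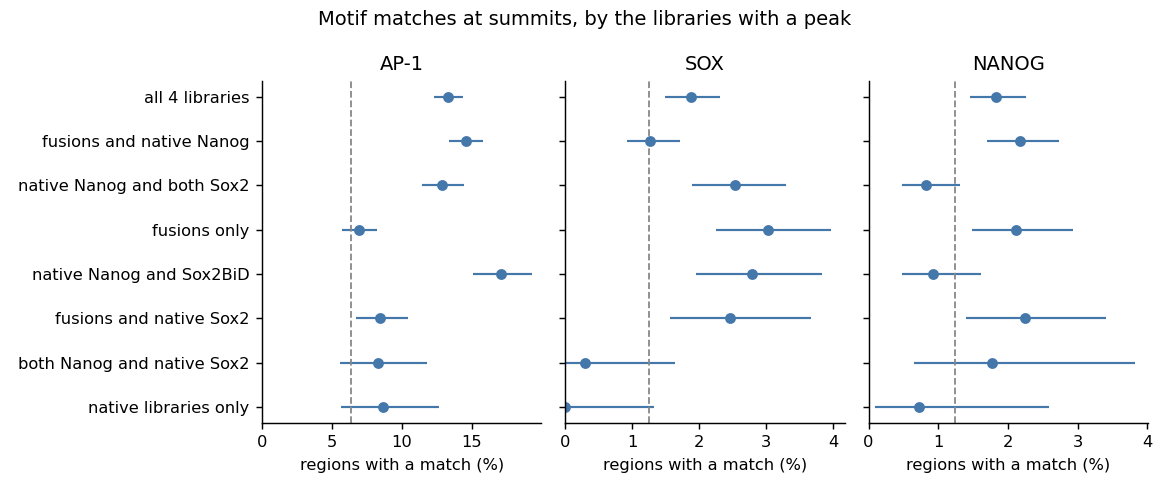
Share of regions with an AP-1, SOX or NANOG match (x axes, %; points with 95% exact intervals) for the 8 combinations of libraries with more than 200 regions (y axis). The dashed line is the share in all regions (6.39%, 1.25% and 1.25%). AP-1 was highest at 17.1% in native Nanog with Sox2BiD and lowest at 6.90% in the fusions alone.

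Nanog-Sox2 regions were mostly distal. The summit lay within 2 kb of a start site in 1506 regions (10.5%, 9.97 to 10.98), against 14.7% of all regions and 10.9% of the genome. Introns held 51.6% and intergenic DNA 44.9%, and the median distance to a start site was 15.4 kb. The regions of Nanog alone (10.4%) and of Sox2 and Oct4 only (10.6%) had similar promoter shares, with differences of 0.117 (-0.633 to 0.861) and -0.153 (-1.01 to 0.686) points, and the regions of Sox2 alone had 8.52%. In the 4571 placed regions with peaks in all 8 libraries the promoter share was 66.6%. These are left out by the rule, and member peaks were at promoters less often than the other peaks of each library (9.85% against 24.0% for native Nanog). Among the combinations, the fusions alone had the highest promoter share, 14.4% (12.7 to 16.2), which was 4.85 points (3.00 to 6.81) above that of all 4 libraries. Windows that were mostly repeats made up 5.29% of members and 11.3% of all regions. Density ran from 4.22 regions per Mb on chromosome 7 to 6.82 on chromosome 19 among autosomes, and was 2.51 on the X chromosome. As a share of all regions on the chromosome the members were 3.96% on chromosome 7, 5.10% on chromosome 19 and 4.97% on the X.

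Most genes had a Nanog-Sox2 region in reach. Of 21938 protein-coding genes, 13044 (59.5%) had at least 1 summit within 100 kb of a start site, with a median of 1 and at most 21. Large genes with many start sites lead such a count, so each is given beside the number of all regions in the same reach, of which 3.82% were members when summed over all protein-coding genes. Pde4d, a cAMP phosphodiesterase gene, had 21 members among 287 regions (7.32%), of which 9 had peaks in all 4 libraries. Auts2 (13 of 162), the zinc-finger gene Mecom (13 of 125), Psd3 (13 of 111) and Utrn, a relative of dystrophin (13 of 142), came next. Dclk1 (of 114), Fggy (of 110), Igf1r (the IGF1 receptor, of 102), Robo1 (a Slit receptor, of 100) and Runx1 (of 60) had 12 each.

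Among these 10 genes Runx1 had the highest share, with 12 members among 60 regions (20%). Runx1 is the runt-domain factor that partners with Cbfb, and lies at chr16:92601466-92826149. The densest 200-kb window of members in the genome, chr16:92552307-92752306, fell on it with 11 members among 45 regions. Of the 12 members, 8 lay in introns of Runx1 and 4 were intergenic, 7 had peaks in all 4 libraries, 4 in 3 and 1 in 2. All 12 had NanogBiD and Sox2BiD peaks, 10 had a native Nanog and 8 a native Sox2 peak. Heights ran from 17 to 49 tags (median 23.5) for Nanog, 12 to 78 (24) for NanogBiD, 18 to 60 (40.5) for Sox2 and 14 to 76 (31.5) for Sox2BiD. The highest NanogBiD value, 78 tags, was at the intronic region chr16:92653121-92656022, where Nanog had 49, Sox2 40 and Sox2BiD 29. The highest Sox2BiD value, 76 tags, was at chr16:92737422-92741014, where Nanog had 30, NanogBiD 45 and Sox2 60. An AP-1 match lay at the summit of 2 of the 12, and none held a SOX, NANOG, TEAD or RUNX match there.

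Fibroblast matrix and mesenchymal genes had member shares above the 3.82% over all protein-coding genes, and pluripotency genes had a share below it. These are counts over lists chosen with earlier results of these data known, and no test was made. The shares are of all regions, including those with an Oct4 or Nr5a2 peak, which the rule left out as members. A share therefore also depends on where those factors had peaks, and is a description. Regions are summed over genes, so a region in reach of several genes is counted at each. Distinct members against such sums were 62 and 66 for the matrix list, 18 and 23 for the epithelial list. They were 19 and 21 for the pluripotency list and 29 and 32 for the AP-1 list. In the other lists they were equal. Of 28 fibroblast matrix genes 23 had a member (82.1%, against 59.5% of all genes), and 5.66% of the regions in their reach were members. Tnc (tenascin C) had 8 members among 44 regions, Col5a2 had 7 among 59, Col3a1 had 6 among 35 and Fbn1 (fibrillin) had 5 among 43. Of 16 mesenchymal genes 11 had one (6.44% of regions), with 6 members each at Cdh2 (N-cadherin, of 66 regions), Cdh11 (of 66), Zeb1 (of 57) and Zeb2 (of 60). The Zeb proteins repress epithelial genes. Zeb1 had a member summit 54 bp from a start site. Of 4 RUNX genes all had one (7.84%), but this share rests on Runx1. The other 3, Runx3, Cbfb and Runx2, had 4 members among 144 regions (2.78%). Dab2 and Thbd, a pair of somatic genes, had 6 of 55 and 2 of 39 regions (8.51% in all).

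Lists of regulators and signalling genes had shares of 3.18% to 4.86%. Of 14 AP-1 genes 10 had a member (4.86% of regions), with 11 of 110 at Bach2, 5 of 49 at Fosl2, 3 of 37 at Bach1 and 3 of 33 at Jun. This share leans on Bach2, which held 11 of the 32 members counted. Batf2, Fos, Junb and Jund had none, among 44, 49, 40 and 35 regions. Of 28 TGF-beta, Nodal and Bmp genes 21 had one (4.25%), with 8 of 126 at Ltbp1, 6 of 80 at the receptor gene Bmpr1b and 4 of 42 at Smad4, the common Smad. Of 20 TEAD and Hippo genes 13 had one (3.18%), with 5 of 69 at Amotl1, 3 of 62 at Stk3, 3 of 81 at Tead1 and 3 of 38 at Wwtr1. Of 19 genes of the SOX family 7 had one (4.17%), and they were unevenly spread, with 11 of 95 at Sox5, 7 of 100 at Sox6 and 6 of 35 at Sox11.

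Of 30 pluripotency genes 14 had a member (46.7%, 2.34% of regions), with 3 of 43 at Lefty2, 2 of 38 at Klf5, 2 of 49 at Lefty1 and 2 of 30 at Lin28a. Among the genes that the study followed as targets, Foxb1, Klf4 and Sox15 had 1 member each. Dppa5a, Esrrb, Mir302a, Olig3, Sall4 and Sox2 itself had none, with 19 to 42 regions of any factor near each. The median over all protein-coding genes was 1. The study drew its targets from cells given NanogBiD with Oct4, by expression, accessibility and, on a later day, NANOG and BRG1 binding. Here regions with an Oct4 peak were left out, so these counts are not a check of those targets. Of 24 BAF genes 16 had one (2.87%), with 5 of 51 at the ATPase gene Smarca2, 4 of 41 at Brd7 and 4 of 52 at Pbrm1. Of 20 epithelial genes 14 had one (3.04%), with 4 of 50 at Grhl2, a factor of epithelial enhancers, 2 of 48 at Cldn3 and 2 of 47 at Cldn4. Of 22 neural genes 8 had one (2.68%), with 5 of 27 at Neurod1.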

How the data were processed

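Flag CUT&Tag peak lists of 8 libraries from MEFs at day 3 were analysed. As the study's methods state, the authors used Trim Galore 0.6.4 for trimming, Bowtie2 2.4.5 for alignment to mm10, SAMtools 1.16.1 to remove repetitive, poorly mapped and mitochondrial reads, and MACS 1.4.2 for peaks, without a named control. Removal of repetitive reads leaves repeats with few peaks. The deposited score is 10 times the negative log10 of the p-value. The deposited summit height is a signal in whole tags, not scaled to depth. The methods speak of merged replicates and the reporting summary of a single experiment, so each list was taken as 1 sample.

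Peaks were merged at 1 bp overlap and summits matched to GRCm38 and GENCODE M21. The members and the gene lists were chosen with earlier results of these data known. Genes named are the 10 with most members, the leading genes of each of 13 lists, and the nearest genes of the highest ranked regions. Sequences shown are those of the highest ranked regions with a match. Shares were computed with SciPy 1.17.1, pandas 2.3.3 and NumPy 2.4.6 under Python 3.11.15 and tested on simulated data, and figures drawn with matplotlib 3.10.9. Alternatives changed the score minimum, peak number, overlap, exclusion distance, windows and libraries. A member off the placed chromosomes was left out of sequence counts.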

Additional observations from a re-analysis of the deposited data

Results flagged for a closer look

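For several measures the BiD fusion stood above the native form for 1 factor and below it for the other. Each value is the log2 of the fusion over the native form in 1 library each, and none of these differences was tested. The number of Nanog-Sox2 regions with a peak gave -0.12 for Nanog and 0.75 for Sox2. With 50000 peaks per library it was lower in both fusions, at 7394 for Nanog and 6423 for NanogBiD, and 7062 for Sox2 and 6795 for Sox2BiD. Motif enrichment over the flanks at summits within these regions gave -0.04 for Nanog and 0.53 for Sox2 for SOX, 0.14 and -0.06 for AP-1, and 0.06 and -0.08 for RUNX. For motifs of the factors that the rule left out, it gave -0.26 and 0.40 for the octamer and 0.10 and -0.40 for NR5A. For each of these motifs and both factors, the intervals of the fusion and the native form overlapped. The SOX enrichment was 4.42 (3.31 to 5.89) for Sox2 and 6.39 (5.22 to 7.83) for Sox2BiD. The AP-1 enrichment was 6.88 (6.22 to 7.60) for Nanog and 7.57 (6.74 to 8.50) for NanogBiD.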

How the results depend on the processing

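Of 100 values of 8 results recomputed under the alternatives, 73 stayed within the counting interval or within 1.5 times a count, and 27 moved, none in direction. The number of Nanog-Sox2 regions was 8775 with 50000 peaks per library and 8218 to 17259 with a library left out. The lowest came without Sox2BiD and the highest without Oct4BiD. The promoter share was 9.37% with no Oct4 or Nr5a2 peak within 1 kb, 3.50% for a distance of 500 bp, and 9.05% to 11.8% with a library left out. Summits within 100 bp stood at 62.1% with an overlap of 100 bp, 59.2% with scores of at least 100, and 53.2% to 61.6% with a library left out. The share of genes with a member was 50.4% with scores of at least 100, 41.0% within 50 kb, and 39.1% to 65.6% with a library left out. With windows of 100 bp the enrichment fell to 5.58 for AP-1 and 3.44 for SOX, and SOX ran from 2.76 without Sox2BiD to 4.64. Groupings by form were added after seeing the data. AP-1 differed by -2.01 points with and without NanogBiD, but by 0.394 with 50000 peaks and 0.629 with scores of at least 100. It differed by -0.896 with and without native Sox2, but by 0.427 with 50000 peaks and -1.83 with scores of at least 100. The cause of these shifts was not tested. No paired analysis was possible because each group has 1 library. Depth limits what a missing peak can mean.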
